A study of Mus musculus with 11 samples.

Results

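The 9 genes described here are Mbp, Mobp, Cnp, Ermn, Mag, Mog, Opalin, Cldn11 and Myrf, which mature oligodendrocytes use to build and maintain myelin. They were taken by symbol from a table of 14864 genes, and all 9 were among the 13184 genes that passed a filter on low values. RNA had been sequenced from the hypothalamus of mice aged 60 to 70 days, in 11 libraries of 1 animal each. The libraries labelled WT (wild type) came from 2 females and 3 males, and those labelled Het, heterozygous for a mutation of Myt1l, came from 3 females and 3 males. The MYT1L protein is a transcription factor of neurons with zinc fingers, and the comparison asks how loss of 1 copy changes the adult hypothalamus. Strain, litter, the mutated allele and any treatment were not given in the sources used here, and no other allele was named for either group. Replicate numbers are those of the titles, and they do not pair the groups.

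Oligodendrocytes wrap axons with layers of their own membrane, and most of that membrane is pressed into compact myelin. Narrow cytoplasmic channels, adhesion proteins next to the axon and tight junctions hold the sheath together, and the membrane-bound transcription factor Myrf switches the myelin genes on as the cell matures and is needed to keep them on. In the hypothalamus, fibre tracts such as the fornix are myelinated, while many local neurons have little myelin, so the amount of white matter in a dissected piece bears on these transcripts. RNA from a whole tissue piece cannot tell fewer oligodendrocytes from less myelin RNA per oligodendrocyte.

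Sequence before the start site was at hand for 7 of the 9 genes, in a RefSeq table for GRCm38.p6, and 4 stretches are shown. Among these 7, Mobp and Cldn11 had the highest Pearson's r of levels over the libraries (0.91). Mag and Ermn had the lowest r within genotype and sex (-0.90). The pairs were thus picked by different measures. Over all libraries Mag with Opalin was lowest (-0.60), and within genotype and sex Mog with Opalin was highest (0.97). Each is written 5′ to 3′ on the strand of the gene and ends where the annotated gene begins. Capitals mark matches, on either strand, to the MYT1L core AAGTT, to ACAAAG and ACAATG, which SOX factors such as Sox10 bind, and to CTGGCAC and CTGGTAC, which Myrf binds. None of these motifs overlaps another in the stretches shown. The stretches are Mobp chr9:120149492-120149706 (plus strand), Cldn11 chr3:31149670-31149919 (plus), Mag chr7:30914874-30915113 (minus) and Ermn chr2:58052865-58053114 (minus).
Mobp: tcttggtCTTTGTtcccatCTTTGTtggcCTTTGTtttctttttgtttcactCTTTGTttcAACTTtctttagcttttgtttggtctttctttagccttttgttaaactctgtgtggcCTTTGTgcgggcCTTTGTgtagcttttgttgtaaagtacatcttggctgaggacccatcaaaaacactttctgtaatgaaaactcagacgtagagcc
Cldn11: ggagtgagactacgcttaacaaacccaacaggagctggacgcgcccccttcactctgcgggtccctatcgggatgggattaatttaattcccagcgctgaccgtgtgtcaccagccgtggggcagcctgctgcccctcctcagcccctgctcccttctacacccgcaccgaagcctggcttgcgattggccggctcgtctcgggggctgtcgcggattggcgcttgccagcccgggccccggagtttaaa
Mag: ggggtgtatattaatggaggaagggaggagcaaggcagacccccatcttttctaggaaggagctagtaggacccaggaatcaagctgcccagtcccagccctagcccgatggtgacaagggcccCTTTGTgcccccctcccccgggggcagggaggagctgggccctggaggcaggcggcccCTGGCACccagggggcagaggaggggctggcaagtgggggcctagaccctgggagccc
Ermn: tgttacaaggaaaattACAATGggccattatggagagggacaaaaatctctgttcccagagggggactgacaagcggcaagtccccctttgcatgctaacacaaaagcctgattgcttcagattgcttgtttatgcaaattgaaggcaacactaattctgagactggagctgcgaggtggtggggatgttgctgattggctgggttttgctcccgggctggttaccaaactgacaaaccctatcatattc

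Mobp and Cldn11, whose levels ran nearly parallel, looked unlike each other here. Over the 250 bases before the RefSeq start, Mobp had 40.8% GC and 6 matches to ACAAAG, and Cldn11 had 63.6% GC and no match to any of these motifs. Among 32817 such windows of all genes, 1 window (0.00305%), that of Mobp, held as many as 6. A single ACAAAG was common, in 16.5% of all windows, and was found in those of Mobp, Cnp, Mag and Opalin. ACAATG, in 10.7% of windows, was found in Ermn. For the Myrf motif, CTGGCAC stood in 4.19% of all windows and in those of Cnp and Mag, and CTGGTAC in 1.83% and in that of Mog. AAGTT, in 35.3% of all windows, was found in Mobp, Cnp and Opalin. A match of letters is not a bound site, and these windows say nothing of enhancers.

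Levels are given as CPM, recovered from deposited log2 values that had been corrected for unwanted variation. These CPM are a gene's corrected counts on a scale with a common upper quartile, not scaled to the library total. A corrected count stood for 0.04192 CPM in Het replicate 5 (total 22921048) and 0.04217 CPM in WT replicate 3 (total 24941704). Corrected counts totalled 23701175 to 24941704 in WT and 22921048 to 23799167 in Het, and raw depth is unknown. Differences between genotypes under scaling to the library total were not tested. Transcripts that mark the hypothalamus were present in all 11 libraries. Hcrt, the orexin precursor, was between 774.2 and 1476 CPM, and Oxt, the oxytocin precursor, between 197.1 and 503.3 CPM. Within each sex both were lower in every Het library than in every WT library. That pattern was found for 10.4% of all genes in males and 15.6% in females. Of other hypothalamic peptide genes looked at, Avp showed it in both sexes, Pmch in males only and Pomc in neither sex. Pomc in males was 63.76 to 91.02 CPM in WT and 50.17 to 73.76 CPM in Het. In males Hcrt was 774.2 to 883.6 CPM in Het and 937.8 to 1214 CPM in WT. Hcrt and Oxt were both lowest in Het replicate 9, the highest library for 6 of the 9 genes. Any bearing of these levels on the myelin values was not tested. Myt1l itself did not separate the labelled groups, with means ± SD of 76.3 ± 15.9 CPM over 5 WT and 76.3 ± 26.9 CPM over 6 Het libraries. The library labelled WT replicate 11 had the lowest Myt1l level of all, 51.1 CPM, and the library labelled Het replicate 9 the highest, 130.0 CPM. These 2 libraries go against their labels, so results are given with and without them. Reads of a mutated transcript would add to this level, which is therefore an incomplete check of the labels.

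The genes lie on 8 mouse chromosomes, and only Opalin and Myrf share one. Coordinates are those of mm10. The compact myelin genes are Mbp (ENSMUSG00000041607, chromosome 18 from 82475146 to 82585637) and Mobp (ENSMUSG00000032517, chromosome 9 from 120149707 to 120181484). Cnp (ENSMUSG00000006782, chromosome 11 from 100574904 to 100591729) and Ermn (ENSMUSG00000026830, chromosome 2 from 58045113 to 58052864) act in the cytoplasmic channels and cytoskeleton. Mag (ENSMUSG00000036634, chromosome 7 from 30899176 to 30914873), Mog (ENSMUSG00000076439, chromosome 17 from 37010743 to 37023398), Opalin (ENSMUSG00000050121, chromosome 19 from 41061710 to 41077113) and Cldn11 (ENSMUSG00000037625, chromosome 3 from 31149920 to 31164324) encode surface and junction proteins. Myrf (ENSMUSG00000036098) lies on chromosome 19 from 10208272 to 10240748. Exons of Mobp overlap Gm38642 on the same strand, and exons of Cnp and Ermn overlap Dnajc7 and Galnt5 on the opposite strand. Whether reads were counted by strand was not given in the sources used here. The share of reads split with those neighbours is therefore uncertain.

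Per kilobase of the longest coding transcript, the 9 genes spanned a wide range of levels. Mbp, which joins the cytoplasmic faces of the myelin membrane, was at 919 ± 132 CPM per kilobase (SD over 11 libraries), and Cnp, a phosphodiesterase that keeps the cytoplasmic channels open, was at 581 ± 36.8. Mog at 182 ± 13.5, Cldn11 at 177 ± 19.6, Mobp at 169 ± 24.2 and Mag at 156 ± 17.2 CPM per kilobase followed, and the range of each overlapped that of the next. Opalin at 56.9 ± 6.59, Ermn at 36.2 ± 5.04 and the transcription factor Myrf at 1.72 ± 0.401 stood apart from each other and from the rest in all 11 libraries. Reads of shorter isoforms are divided by the longest length here, which can understate a gene such as Mbp, with 14 annotated coding transcripts.

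**Figure D1:**
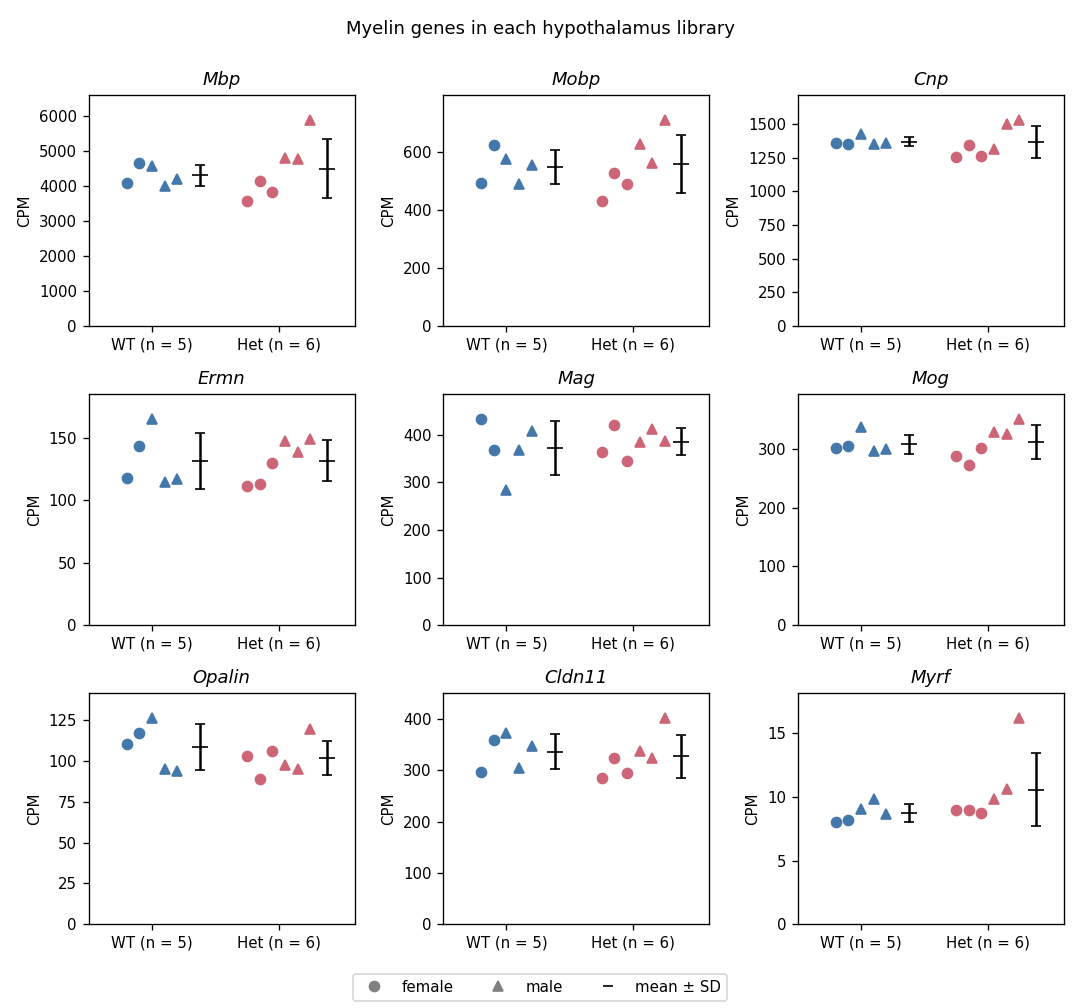
Level of each of the 9 genes in every library, in CPM on a linear axis from 0, with WT in blue, Het in red, circles for females and triangles for males; the black bar is the group mean ± SD (n = 5 WT, n = 6 Het). The groups overlap in all 9 panels, and Het replicate 9, the last triangle, is the highest library for 6 genes.

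Mbp read 4095 and 4667 CPM in WT females (replicates 4 and 6) and 4562, 3991 and 4199 CPM in WT males (replicates 3, 7 and 11). In Het it read 3571, 4146 and 3818 CPM in females (replicates 2, 4 and 7) and 4787, 4775 and 5893 CPM in males (replicates 5, 8 and 9). All 3 Het males were above every WT library, while Het females 2 and 7 were below every WT library, so the Het group reached further both ways. Mobp, the small basic protein of compact myelin, also reached further both ways in Het, with 490.3 to 626.8 CPM in WT (median 555.0) and 433.0 to 712.9 CPM in Het (median 544.9). Its extremes were again Het replicates 2 and 9.

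Cnp was the steadiest gene in WT, between 1352 and 1428 CPM with a median of 1357. In Het it ran from 1255 to 1533 CPM with a median of 1331, and Het libraries lay on both sides of the WT range. Ermn, an actin-binding protein of the sheath, ran from 114.5 to 165.5 CPM in WT and from 111.7 to 149.2 CPM in Het. Its highest library was WT replicate 3, and the groups overlapped over most of their range.

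Mag, the adhesion protein that faces the axon, read 433.9 and 368.2 CPM in WT females and 283.8, 368.6 and 409.0 CPM in WT males, and 345.5 to 420.2 CPM in Het (median 386.6). WT replicate 3, highest for Ermn and Opalin, was the lowest library for Mag. Mog, on the outermost face of the sheath, ran from 296.7 to 336.3 CPM in WT and from 272.0 to 351.1 CPM in Het. Opalin, a sialylated membrane glycoprotein of oligodendrocytes, ran from 93.7 to 126.3 CPM in WT and from 89.0 to 119.3 CPM in Het, and Cldn11, the claudin of myelin tight junctions, from 297.3 to 373.3 and from 284.7 to 402.5 CPM. For each of these 4 genes the groups overlapped.

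Myrf was low throughout. It read 8.02, 8.18, 9.02, 9.81 and 8.66 CPM in WT replicates 4, 6, 3, 7 and 11. In Het it read 9.00, 8.97 and 8.76 CPM in females 2, 4 and 7, and 9.85, 10.7 and 16.2 CPM in males 5, 8 and 9. Het replicate 9 stood far above the other 10 libraries, and the other Het males were also above every WT library.

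Summed over the 9 genes, myelin transcripts made up 0.654% (Het replicate 2) to 0.972% (Het replicate 9) of all corrected counts. Mbp alone was 55.6% to 61.6% of that sum, with the same libraries at the ends. Het replicate 9 was above the median library for all 9 genes and the highest for 6, and Het replicate 2 was above the median for none and the lowest for 5. The WT libraries lay between, at 0.689% to 0.762%.

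**Figure D2:**
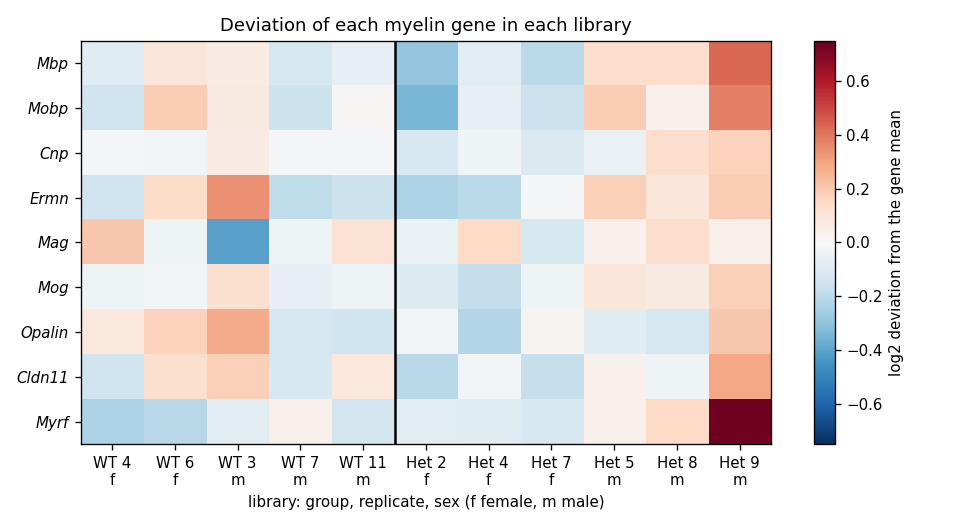
Deviation of each gene (rows) from its mean over 11 libraries, on the log2 scale, in each library (columns; f female, m male), with WT left of the line and Het right of it; red is above the mean and blue below. Het replicate 9 is red for all 9 genes, from 0.04 for Mag to 0.73 for Myrf, and in WT replicate 3 Mag (-0.41) and Ermn (0.34) have opposite colours.

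No myelin gene separated the genotypes. With limma on log2(CPM + 0.5), sex as a term and p-values adjusted by Benjamini-Hochberg over 13184 genes, 0 of 9 passed an adjusted p of 0.05, where 3.44% of all tested genes passed (2.3% higher and 1.14% lower in Het). None of the 9 had an unadjusted p under 0.05 in that fit, against 22.3% of all genes, and 0 of 9 had groups that did not overlap, against 2.02% of genes higher and 1.33% lower in Het. The fitted difference, Het minus WT, was positive for 7 genes and negative for Opalin and Cldn11, with a median of 0.026, where 47.0% of all genes were positive and their median was -0.016. Without WT replicate 11 and Het replicate 9 it was positive for 2, Mag and Myrf, with a median of -0.034 (48.6% of all genes positive), and 0 of 9 passed against 1.74% of all genes.

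The fitted differences were small beside their intervals. For Mbp the log2 difference was 0.07 (SE 0.09, 95% confidence interval -0.12 to 0.26, limma adjusted p = 0.698), which is a ratio of 1.05 with bounds 0.918 and 1.2. Under quantile normalization Mbp was at 0.22 (0.06 to 0.37, unadjusted p = 0.00906, limma adjusted p = 0.112). Cnp had the narrowest interval, 0.01 (-0.11 to 0.12), and Mog was at 0.03 (-0.09 to 0.15). Differences and intervals for Mobp were 0.03 (-0.17 to 0.23), for Ermn 0.02 (-0.18 to 0.23), for Mag 0.06 (-0.13 to 0.25) and for Cldn11 -0.03 (-0.19 to 0.14). Opalin was the lowest at -0.09 (-0.28 to 0.10, adjusted p = 0.573). Without the 2 libraries in doubt Opalin was at -0.19 (-0.37 to -0.01, unadjusted p = 0.0379, limma adjusted p = 0.205). These errors were estimated after variation had been removed around genotype and sex, so they are too small.

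Myrf had the highest difference, from 8.74 ± 0.72 CPM in WT (SD, n = 5) to 10.6 ± 2.85 CPM in Het (SD, n = 6). The log2 difference was 0.26 (SE 0.131, 95% confidence interval -0.02 to 0.54, limma adjusted p = 0.251). Exchanging genotype labels among animals of the same sex (exact permutation test, two-sided, 200 arrangements, smallest possible p of 0.005) gave p = 0.04 for Myrf and 0.365 to 0.955 for the other 8 genes. Within each sex every Het library was above every WT library for Myrf, a pattern that 8.15% of all genes showed in males and 17.9% in females. No arrangement gives a larger positive difference, so the other arrangements counted in the permutation p of 0.04 had negative differences. The test compared plain group means, and the groups hold unequal shares of females. Without the 2 libraries in doubt the difference was 0.12 (-0.12 to 0.37, limma adjusted p = 0.559). The exact permutation p was then 0.117, with 0.0167 the smallest that 60 arrangements allow. Every Het library was still above every WT library within each sex, so this p too counts arrangements with negative differences. Its rise from 0.04 is therefore not by itself a loss of separation. Without Het replicate 9 the Het mean was 9.45 ± 0.79 CPM (SD, n = 5). Leaving out Het replicate 5 instead gave a log2 difference of 0.32 (0.02 to 0.61, unadjusted p = 0.0362, limma adjusted p = 0.213).

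**Figure D3:**
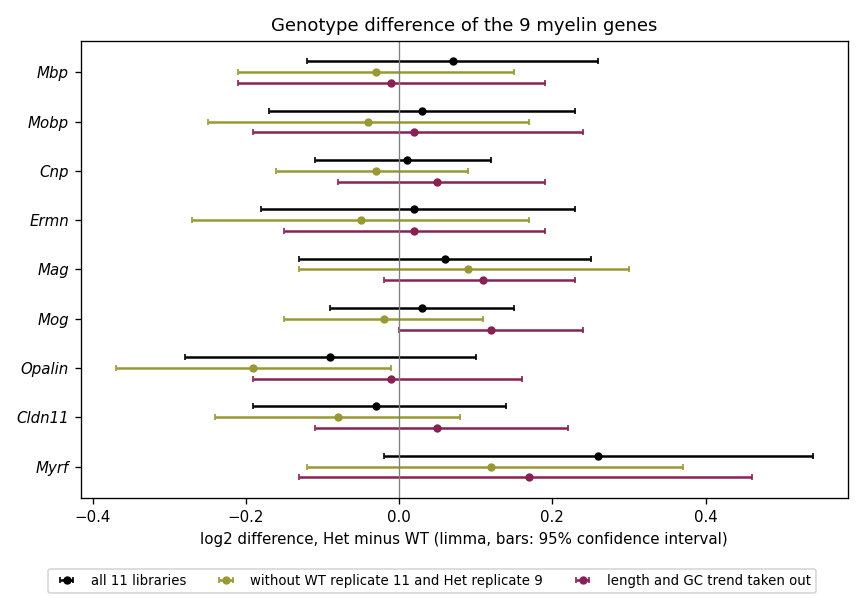
Fitted log2 difference, Het minus WT, of each gene with its 95% confidence interval (limma, sex as a term), for all 11 libraries (black), without WT replicate 11 and Het replicate 9 (olive) and after removal of each library's trends over length and GC (purple). All 9 black intervals include 0, and Opalin without the 2 libraries (-0.37 to -0.01) is an interval that does not.

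Mean levels were higher in males than in females for 7 of the 9 genes, but no gene passed the test. With limma, 0 of 9 passed an adjusted p of 0.05 for male minus female, where 0.197% of all genes did (0.121% higher and 0.0758% lower in males). Unadjusted p-values were under 0.05 for 3 of 9, Mbp, Mog and Myrf, against 12.2% of all genes, and for 0 of 9 without Het replicate 9. Without WT replicate 6 they were under 0.05 for Mobp, Ermn and Cldn11 as well (limma, 0.00256, 0.0214 and 0.0118). The limma adjusted p-values of these were 0.260, 0.409 and 0.366. In that fit Mbp and Mobp were each at 0.30. The difference was positive for 7 genes and negative for Mag and Opalin, with a median of 0.154, where 48.2% of all genes were positive and their median was -0.007. Mbp was 4059 ± 411 CPM in females (SD, n = 5) and 4701 ± 665 CPM in males (SD, n = 6), a log2 difference of 0.21 (95% confidence interval 0.02 to 0.40, limma adjusted p = 0.351). Mog was 293.5 ± 13.5 and 322.9 ± 20.9 CPM, a difference of 0.14 (0.02 to 0.26), and Myrf 8.59 ± 0.459 and 10.7 ± 2.79 CPM, a difference of 0.30 (0.02 to 0.58). Without Het replicate 9 these differences were 0.14 for Mbp (-0.03 to 0.31), 0.11 for Mog (-0.01 to 0.23) and 0.18 for Myrf (-0.05 to 0.41). For all 9 genes males and females overlapped, as they did for all but 0.622% of genes higher and 0.41% lower in males. Without the 2 libraries in doubt the median was 0.129, with 7 of 9 positive (49.8% of all genes), and 0 of 9 passed against 0.129% of all genes. Striatal markers were higher in males for 13 of 14 genes (median 0.176) and endothelial markers lower for 8 of 10 (median -0.225), and their part in these values was not tested.

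Within each sex, the fitted differences between genotypes had opposite signs for most of the 9 genes. Het minus WT was negative for 8 of 9 genes in females alone, with a median of -0.121, and positive for 8 of 9 in males alone, with a median of 0.155. The exceptions were Myrf in females (0.13) and Opalin in males (-0.01). In females, Cnp and Opalin were lower in every Het library than in either WT library (a pattern of 15.6% of all genes). In males, Mbp and Myrf were higher in every Het library (8.15% of genes) and none of the 9 was lower (10.4%).

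The interaction term tests that difference, and with limma 0 of 9 genes passed, as did 0 of all 13184 genes (0.0%). Unadjusted p-values were under 0.05 for Mbp and Mobp, 2 of 9, against 4.65% of all genes. For Mbp, Het minus WT was 0.46 higher on the log2 scale in males than in females (SE 0.147, 95% confidence interval 0.15 to 0.77, unadjusted p = 0.00708, limma adjusted p = 0.982). For Mobp it was 0.43 (SE 0.164, 0.08 to 0.78, unadjusted p = 0.019, limma adjusted p = 0.982). The term was positive for all 9 genes, with a median of 0.236, where 45.6% of all genes were positive. The 9 genes share the same 11 animals and vary together, so that count is not 9 observations. Without the 2 libraries in doubt the term was positive for 8 genes (46.9% of all genes) with a median of 0.122, and it was 0.35 for Mbp (0.04 to 0.66, limma adjusted p = 0.808) and 0.36 for Mobp (-0.01 to 0.74, limma adjusted p = 0.808). Without WT replicate 6 Mobp was at 0.26, and without WT replicate 4 at 0.60, each with 1 WT female left. Without WT replicate 3, Mbp was at 0.51 (0.21 to 0.82, limma adjusted p = 0.768) and Mobp at 0.48 (0.14 to 0.83, limma adjusted p = 0.819). WT females were 2 animals.

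**Figure D4:**
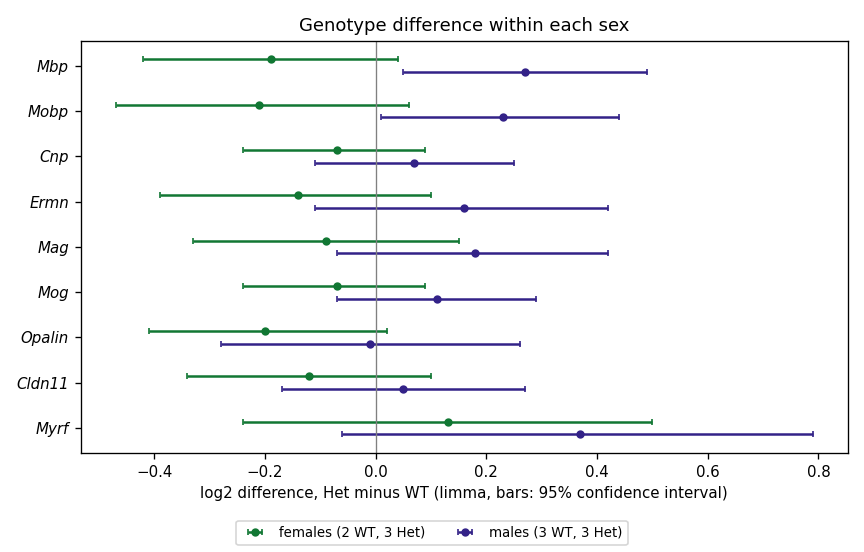
Fitted log2 difference, Het minus WT, of each gene with its 95% confidence interval (limma) in females alone (green, 2 WT and 3 Het) and males alone (blue, 3 WT and 3 Het). The male point lies right of the female point for all 9 genes, and the male intervals of Mbp (0.05 to 0.49) and Mobp (0.01 to 0.44) lie above 0, though neither gene passed after adjustment (0.348 and 0.400).

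The members did not all run together from library to library. Over 11 libraries that share the correction and scaling, Pearson's r of log2 levels, given as a description, was 0.95 for Mbp with Mobp, 0.91 for Mobp with Cldn11 and 0.85 for Ermn with Mog, with a median of 0.62 over 36 pairs. Mbp had r = 0.97 with the mean of the other 8 genes. Mag was the exception at -0.23, with r = -0.54 to Ermn and -0.60 to Opalin. After the mean of each genotype and sex was subtracted, Mag and Ermn were at -0.90 and Mog and Opalin at 0.97, with a median over pairs of 0.45.

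Mag and Ermn lie at opposite ends of the base composition of the 9 genes, and the libraries differ in how level depends on base composition. The longest coding transcript of Ermn has 38.0% GC, the lowest of the 9, and those of Mag and Myrf have 57.6%, the highest (median of all genes 50.3%). In WT replicate 3, genes lost 0.184 on the log2 scale for each 10 points of GC, and in WT replicate 4 they gained 0.149. Across the libraries this slope had Pearson's r = 0.78 with Mag (Spearman 0.62) and -0.77 with Ermn (-0.63). Without WT replicates 3 and 4, whose slopes lay farthest from the median, r was 0.42 and -0.63. The Mag to Ermn ratio of CPM ran from 1.72 in WT replicate 3 to 3.71 in Het replicate 4. Mog, whose GC content is near the median of all genes, had r = -0.65 (-0.63 without the same 2 libraries). Myrf, with the same GC content as Mag, had r = -0.31. The part of base composition in the opposed levels of Mag and Ermn was not tested.

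With each library's trend over GC content and length taken out, r between Mag and Ermn was 0.12 instead of -0.54. Mag and Opalin were at -0.25 instead of -0.60, and the highest r of Mag with another member was 0.34, with Mog. The removal itself shifts genes according to their GC content and length, so these values are a description and not a test. The SD of Mag over libraries was then 0.11 instead of 0.169 on the log2 scale, and that of Ermn 0.155 instead of 0.196. Opalin was also lower (0.148 against 0.163). For the other 6 genes the SD was higher with the trends out, as for Cnp (0.134 against 0.09) and Mobp (0.229 against 0.204). The slope over transcript length separated the genotypes, at -0.089 to -0.034 per doubling of length in WT and 0.02 to 0.083 in Het. With both trends out, 0 of 9 genes passed for Het minus WT, the median was 0.052, Mog was at 0.12 (SE 0.056, limma adjusted p = 0.355) and Myrf at 0.17 (-0.13 to 0.46).

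**Figure D5:**
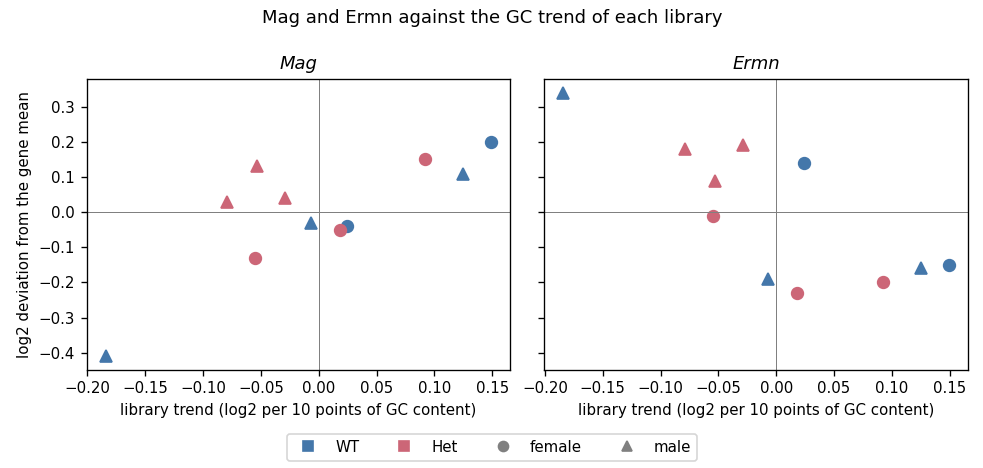
Deviation of Mag (left) and Ermn (right) from their mean on the log2 scale in each library, against that library's slope over GC content in log2 units per 10 points; blue is WT, red Het, circles females and triangles males. Mag is lowest and Ermn highest in WT replicate 3 (slope -0.184), and Mag is highest in WT replicate 4 (slope 0.149).

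Genes with the most similar pattern included other oligodendrocyte genes. Of 13175 genes outside the 9, those with the highest Pearson's r to the mean of the standardised 9 genes over 11 libraries, without predicted-gene names, were led by Bfsp2 (0.957), Spock3 (0.946) and Mal (0.944). Bfsp2 encodes a filament protein known from the lens, Spock3 a proteoglycan and Mal a membrane protein of myelin. Csf1r, a receptor of microglia (0.894), Cryab, a small heat shock protein of oligodendrocytes and the lens (0.891), Tmbim6 (0.885), Chst15 (0.872), Acad8 (0.867), Sash3 (0.855), Tmco5 (0.853) and Zfp180 (0.843) were also among the 12 most alike. Mal ran from 263 to 368 CPM. Of the 12, Bfsp2, Spock3, Mal and Cryab were also among the 12 most alike after the means of genotype and sex were subtracted. Mal and Cryab are on the list of mature oligodendrocyte genes, which the choice of members had not used.

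Among further genes of the pathway, few passed the test for genotype. Of 43 other myelin and mature oligodendrocyte genes, 0 passed with limma (10 had an unadjusted p under 0.05, a share close to the 22.3% of all genes), and their median difference was -0.059. Adamts4, a protease of oligodendrocytes, was at 13.2 ± 2.30 CPM in WT and 18.6 ± 2.55 CPM in Het (log2 difference 0.48, limma adjusted p = 0.0513), and Tppp3 and Apod were at -0.24 and -0.23 (adjusted p = 0.052 and 0.0572). Of 26 genes for myelin lipids and cholesterol, 0 passed with limma (6 had an unadjusted p under 0.05), with a median of 0.029. The smallest p-values there belonged to Elovl6 (0.24), Sqle (-0.16) and Lss (0.35), enzymes of fatty acid and cholesterol synthesis.

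Of 20 oligodendrocyte transcription factors and Myrf partners, 1 rose in Het and 0 fell, with a median of 0.018. That share was near the 3.44% of all genes that passed. The gene that rose was Tcf7l2, a Wnt pathway factor of newly formed oligodendrocytes that some neurons also express, at 45.0 ± 2.58 CPM in WT and 59.3 ± 9.49 CPM in Het (log2 difference 0.39, SE 0.093, limma adjusted p = 0.0327). Of 24 markers of precursors and newly formed oligodendrocytes, 1 rose and 0 fell, with a median of 0.105, and this share too was near that of all genes. Gpr17, a receptor of cells about to mature, went from 14.2 ± 1.13 to 18.0 ± 1.96 CPM (log2 difference 0.35, SE 0.091, limma adjusted p = 0.0442). Neither list had a gene past the threshold without the 2 libraries in doubt, or once trends over length and GC were removed.

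For the axonal partners of the sheath, the fitted difference was positive for all 14 genes of a node and paranode list, with a median of 0.27. Of all genes 47.0% were positive, with a median of -0.016. Of the 14, 3 rose with limma and 0 fell, against 2.3% and 1.14% of all genes. Among those that rose were the potassium channel gene Kcna1 (0.57, limma adjusted p = 0.0121) and the adhesion gene Cntnap2 (0.27, limma adjusted p = 0.0471). These are mainly genes of neurons. Without the 2 libraries in doubt the list median was 0.284, and 2 passed, against 1.74% of all genes. After removal of the trends over length and GC it was 0.063, and 1 passed, against 138 of all 13184 genes. Of 14 striatal markers 8 also rose in Het, and their part in the values of Tcf7l2, Gpr17 and these axonal genes was not tested.

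Marker lists of other cells give the setting of these values. Of 10 microglia, 10 neuron and 6 choroid plexus markers, 0 passed with limma (2, 2 and 1 had an unadjusted p under 0.05), with medians of -0.071, 0.054 and -0.359. The smallest p-values were those of Cx3cr1 (0.22), Ctss (-0.13) and C1qc (-0.24), of Syt1 (0.19), Map2 (0.22) and Stmn2 (-0.14), and of Folr1 (-0.57), Kcnj13 (-0.44) and Clic6 (0.24). Among 11 astrocyte markers Slc1a2 rose (0.40) and Gjb6 fell (-0.24), and among 10 endothelial markers Slc2a1 fell (-0.30). Of all genes 2.3% rose and 1.14% fell. Without the 2 libraries in doubt 1 astrocyte and 0 endothelial markers passed, and after removal of the trends over length and GC 0 passed in either list. Of 6 Schwann cell markers, 2 could be tested, Pmp22 (-0.12) and Drp2 (0.31), and 0 passed (1 had an unadjusted p under 0.05).

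Markers of the striatum, a neighbouring forebrain region, differed most. Of 14, 8 rose in Het and 0 fell, where 2.3% of all genes rose and 1.14% fell. The median of the 14 was 0.586, and 5 passed after removal of the trends over length and GC. The smallest p-values were those of Drd1 (0.79), Foxp1 (0.68), Gng7 (0.73), Bcl11b (0.65), Rasd2 (0.62) and Pde10a (0.55). The summed level of all 14 was 1975 to 2524 CPM in WT and 2306 to 4165 CPM in Het, with none at 0. The summed myelin level overlapped between the groups, at 7025 to 7946 CPM in WT and 6419 to 9564 CPM in Het. The part of striatal RNA in any myelin value was not tested.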

How the data were processed

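Total RNA from a Zymo kit was made into libraries with a SMARTer Ultra Low kit, per the labels' protocols. Trimmomatic, Bowtie2, STAR and HTSeq with build mm10 are named, without versions, per the submitters' processing notes. The authors deposited log2 CPM with an added constant, following a correction named RUVr in the table's name (removal of unwanted variation from residuals). The number of factors and design were not given in the sources used here. All columns shared a floor of -3.574 and an upper quartile of 5.473. CPM were recovered as the back-transform minus the floor, and 100% of values were whole corrected counts within 0.02. The planned test assumed linear CPM and was run on these recovered values.

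Genes with a mean of at least 1 CPM were tested with limma 3.58.1 in R 4.3.3 (lmFit, eBayes with a trend) on log2(CPM + 0.5), with genotype and sex as terms, and with their product for the interaction. P-values are two-sided, adjusted by Benjamini-Hochberg over 13184 genes, with a threshold of 0.05. Log2 differences on this scale understate changes of low genes such as Myrf. The script was tested on simulated data. The whole-number values had already been corrected, so no count model was run on them. Over 11032 genes with at least 50 corrected counts in every library, the direction across libraries with the least variation left (singular value 0.132, next 13.7) had an absolute r of 0.0009 with genotype and 0.0047 with sex. Variation had thus been removed around both terms, so limma errors are too small, and intervals cover the spread between these animals after correction. The exact permutation p-values and the counts of groups that did not overlap use the same corrected values, so this limit holds for them too. Transcript lengths, GC content and coordinates came from GENCODE M21, and sequences from RefSeq.

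The members and gene lists were chosen with earlier results of these data known. Named genes are the 9 members, in each list those past the threshold (up to 6 by p) or else the 3 with the smallest p, and the 12 genes most alike, except that 2 of these names are not reported here. Myt1l, Hcrt, Oxt, Avp, Pmch and Pomc, named as checks, and all values with length and GC trends removed were added after the data were seen. Alternatives covered the pseudocount (0.1, 2), the filter (none, 5 CPM), scaling by medians or quantiles, and degrees of freedom. They also covered each library left out, the terms and blocks of the model, each sex, and each identifier prefix. Scaling to the library total was not among them.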

Additional observations from a re-analysis of the deposited data

Results flagged for a closer look

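In 18 checks, of 9 genes in each genotype, 1 library stood apart from the rest of its group 3 times. The measure was the gap to its neighbour over the range of the group, with limits that chance passes about 1 in 20. The 9 genes share the same animals and vary together, so the 18 checks are not separate and that rate does not measure this count. Myrf in Het replicate 9, at 16.2 CPM, had a gap of 0.746 of the range, above the limit of 0.625 for 6 libraries. The same library had the highest Myt1l level, against its label. Cnp in WT replicate 3, at 1428 CPM, had a gap of 0.92, and Mog in the same library, at 336.3 CPM, a gap of 0.817, above the limit of 0.71 for 5 libraries. The other 4 WT libraries lay between 1352 and 1358 CPM for Cnp and between 296.7 and 304.0 CPM for Mog. WT replicate 3 also had the steepest slope over GC content, -0.184, and its part in these values was not tested.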

How the results depend on the processing

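Under 27 other settings for genotype, 21 for sex and 20 for the interaction, 0 of the 9 genes passed, with smallest adjusted p-values of 0.112, 0.212 and 0.715. The sign of a gene's difference changed in 42 of 243 values for genotype, 6 of 189 for sex and 1 of 180 for the interaction. For Het minus WT the median moved to -0.121 in females alone and 0.155 in males alone, and to 0.001 with libraries centred on their medians and 0.107 with quantile normalization. Signs changed with centring for Cnp (-0.02) and Ermn (-0.002), with quantile normalization for Cldn11 (0.064), with no sex term for Cnp (-0.006), and with length and GC trends out for Mbp (-0.007) and Cldn11 (0.052). Without the 2 libraries in doubt they changed for Mbp (-0.028), Mobp (-0.041), Cnp (-0.034), Ermn (-0.051) and Mog (-0.019). In females alone they changed for Mbp (-0.188), Mobp (-0.207), Cnp (-0.075), Ermn (-0.142), Mag (-0.091) and Mog (-0.075), in males alone for Cldn11 (0.051), and within prefix 14309 for Mobp (-0.082), Ermn (-0.03) and Mag (-0.015). Prefixes stand in the descriptions with no stated meaning. Within prefix 14308 the median was 0.057, and prefix 14111 held 1 WT library only. Leaving out 1 library at a time, for Het minus WT the median ran from -0.009 to 0.052, Mbp from -0.008 to 0.15, Mobp from -0.035 to 0.138, Cnp from -0.024 to 0.03, Ermn from -0.04 to 0.104, Mag from -0.033 to 0.126, Mog from -0.002 to 0.05 and Cldn11 from -0.083 to 0.039. Without each in turn, for male minus female the median ran from 0.111 to 0.218, Mag from -0.089 to 0.027 and Opalin from -0.083 to 0.017. The exact permutation p of Myrf was 0.117 without the 2 libraries in doubt, though Het stayed above WT within each sex, and the interaction of Myrf was -0.014. For male minus female, Mag was 0.036 with length and GC trends out. Numbers 4 and 7 were shared by both groups, with correlations of 0.13 and -0.09 between same-numbered libraries, so the numbers do not pair the animals. With the replicate block the median was -0.023, 0 of 9 passed, 46 genes passed in all, and Mbp (-0.023), Cnp (-0.059), Mag (-0.07), Mog (-0.06), Cldn11 (0.038) and Myrf (-0.0) changed sign. The cause of these changes was not tested. The count of all genes passing for genotype, 453, was 189 with 1 residual degree of freedom taken off, 200 with no sex term, 300 with the prefix as a block, 229 without the 2 libraries in doubt, 138 with the trends out, and 140 to 820 with 1 library left out (140 without WT replicate 6, 820 without WT replicate 3). Of the 12 genes most alike, 4 were shared after subtraction of group means. The raw depth is unknown, so counting error cannot be set beside these spreads, and Myrf, near 9 CPM, is the gene it would touch most.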
